A study of Mus musculus with 12 samples.

Results

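Wild type mouse embryonic fibroblasts were compared before and after 24 h of tunicamycin by the levels of their miRNAs. The comparison takes 4 of the 12 arrays of the series, selected by their titles: 2 arrays of untreated cells and 2 of cells kept for 24 h in 2 ug/mL tunicamycin, all with the genotype label ATF6aWT. The cells were C57BL/6 embryonic fibroblasts, and each array received Cy3-labelled RNA from 100 ng of total RNA. The other 8 arrays held wild type cells at 12 h and cells deficient in ATF6a, untreated or at 12 h and 24 h. The labels call the 2 experiments per time independent, without saying whether they began from separate embryos or cell isolates. The p-values therefore measure the spread between arrays within groups, pooled over all 6 groups of the series. All 611 mouse miRNAs on the array, of 650 miRNAs in all, were considered. Of these, 174 were bright enough to test, together with 1 viral probe set, which gave 175 tests.

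Tunicamycin blocks N-linked glycosylation, so that unfolded glycoproteins build up in the endoplasmic reticulum and the unfolded protein response begins. Its sensors are IRE1, PERK and ATF6a; IRE1 is also an RNase, and miR-17, miR-34a, miR-96 and miR-125b have been reported among the miRNAs whose precursors it cleaves. A miRNA guides Argonaute to messenger RNAs mainly through its seed, bases 2 to 8 from the 5′ end, and miRNAs with the same seed form a family. Family members can come from different genomic loci and can therefore be made in different amounts.

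The mature sequences of the miRNAs on which the results turn are printed 5′ to 3′ as RNA from RefSeq (build GRCm38.p6), with the seed in capitals. Of the 66 miRNAs measured on all 4 arrays, as defined below, 58 matched a RefSeq mature sequence through their current names. They carried 40 different seeds, 9 of which were shared by 2 or more of them. The let-7 family comes first, because its 8 measured members share the seed GAGGUAG and their levels moved apart.

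let-7a: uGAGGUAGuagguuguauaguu
let-7b: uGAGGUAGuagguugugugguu
let-7c: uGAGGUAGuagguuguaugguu
let-7d: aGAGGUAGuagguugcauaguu
let-7e: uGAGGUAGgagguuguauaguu
let-7f: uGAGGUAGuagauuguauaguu
let-7g: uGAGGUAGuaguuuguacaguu
let-7i: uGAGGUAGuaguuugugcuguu

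Counted from 1 at the 5′ end of let-7a, let-7e carries the single substitution U9G, let-7c carries A19G and let-7f carries G12A. let-7i carries 4 substitutions, G12U, A17G, U18C and A19U. The next members, of the miR-17 cluster and its paralogs, rose, and they fall under 3 seeds.

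miR-19a: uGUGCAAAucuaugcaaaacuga
miR-19b: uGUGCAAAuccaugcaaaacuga
miR-20a: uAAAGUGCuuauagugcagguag
miR-20b: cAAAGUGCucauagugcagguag
miR-92a: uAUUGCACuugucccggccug

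miR-19a and miR-19b differ by U11C, and miR-20a and miR-20b by U1C and U10C. The next sequences are those of fallen miRNAs, with the seed-sharing relatives miR-26b, miR-125a and miR-15b that did not pass the threshold.

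miR-26a: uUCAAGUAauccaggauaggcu
miR-26b: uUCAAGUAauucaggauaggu
miR-125b: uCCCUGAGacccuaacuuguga
miR-125a: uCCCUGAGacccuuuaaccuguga
miR-322: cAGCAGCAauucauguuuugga
miR-15b: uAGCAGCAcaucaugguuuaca
miR-21: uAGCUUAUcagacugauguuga
miR-199a-5p: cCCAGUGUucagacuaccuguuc
miR-199a-3p: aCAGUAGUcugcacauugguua
miR-214: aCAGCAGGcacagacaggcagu

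The last ones are the strongest measured rise and the risen member of the miR-23 family.

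miR-1224: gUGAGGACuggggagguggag
miR-23a: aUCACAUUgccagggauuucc

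Levels below are log2 of a probe signal divided by its array's 75th percentile over 87 probes bright on all arrays, so 0 lies at that percentile and 1 unit is a doubling. Changes are the mean of the 24 h arrays minus the mean of the untreated arrays ± SE, with n = 2 arrays per group. SEs and p-values come from limma fitted to all 6 groups, so they pool the spread of all 12 arrays. The p-values carry Benjamini-Hochberg adjustment over the 175 tests. A miRNA counts as measured if, on each of the 4 arrays, at least 1 of its probes was above background and none lay at the floor of -5.02 set for dim signals. A measured level can therefore include a probe below background. Signals of different miRNAs are not comparable as amounts, since each depends on its probes. All changes are relative to this scaling, and fewer cells of a kind and less RNA per cell cannot be told apart in such bulk samples.

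The untreated replicates resembled each other more than the treated ones. Replicates differed with an SD over all tested miRNAs of 0.204 for the untreated and 0.715 for the 24 h arrays. At 12 h this SD was 1.12 in the wild type and 1.19 in the deficient cells, whose arrays enter the pooled spread too. The scanner placed 167 and 160 mouse miRNAs above background on the untreated arrays, 142 on 24 h replicate 1 and 85 on 24 h replicate 2. On 24 h replicate 2 the lowest signal above background lay at -2.87, against -5.01 on 24 h replicate 1. The untreated arrays were on slide 1 and the treated ones on slide 2, so the effects of slide and of treatment cannot be told apart. The scanner software marked the labelling spike-ins out of range on the untreated arrays and in range on the treated ones: the first spike-in read 2.55 and 2.18 (log10) untreated and 3.05 and 2.77 after 24 h. Divided by the spike-ins in place of the percentile, all 10 measured rises named below turned into falls, whereas the 15 measured falls kept their direction. Under that scaling the median change of the 66 measured miRNAs moved from -0.0051 to -2.29, and all 25 stayed on their side of the median. Both scalings divide an array by a single number, so apart from the floor they move all changes by the same amount. That falls stayed falls and sides of the median were kept followed from this and was not a test.

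The labelled cell type was reflected in its markers. Of 19 miRNAs typical of fibroblasts and other mesenchymal cells, 18 were above background on both untreated arrays, among them miR-21, miR-199a, miR-214 and the miR-29 family. Muscle, blood, epithelial and endothelial miRNAs were above background on none of the 4 arrays. Of 9 neuronal miRNAs, miR-132 was above background on the untreated arrays, and of 19 miRNAs of pluripotent cells, miR-291b-5p on untreated replicate 1.

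After 24 h, 72 of the 175 miRNAs (41.1%) passed the adjusted p of 0.05, 13 higher (7.43%) and 59 lower (33.7%). The groups did not overlap for any of the 72, but that held for 124 of all 175 (70.9%) too. Among the 66 measured miRNAs, 25 (37.9%) passed, 10 higher (15.2%) and 15 lower (22.7%), and the median change was -0.0051. The groups did not overlap for 49 of the 66 (74.2%). For each of these 25, both probes used moved in the called direction. In 16 of them every probe was above background on all 4 arrays; in the other 9 (miR-19a, miR-20b, miR-92a, miR-23b, miR-26a, miR-155, miR-199a-5p, miR-300 and miR-379) a probe was below it on 24 h replicate 2. When each of the 4 arrays was left out in turn, 14 of the 25 passed every time, 4 higher (miR-1224, miR-19b, miR-20a and miR-20b) and 10 lower (miR-26a, miR-23b, miR-199a-5p, let-7i, miR-322, miR-21, miR-199b*, miR-155, miR-199a-3p and miR-300). The number past the threshold was 16 without untreated replicate 1, 16 without untreated replicate 2, 19 without 24 h replicate 1 and 16 without 24 h replicate 2. The calls depend on how arrays are scaled and summarised: of the 25, none passed with a percentile over all probes, after quantile normalization or in the deposited table, 1 passed with normexp and 4 with summed signals per miRNA. Of all 175, these settings called 0, 11, 0, 2 and 27.

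**Figure D1:**
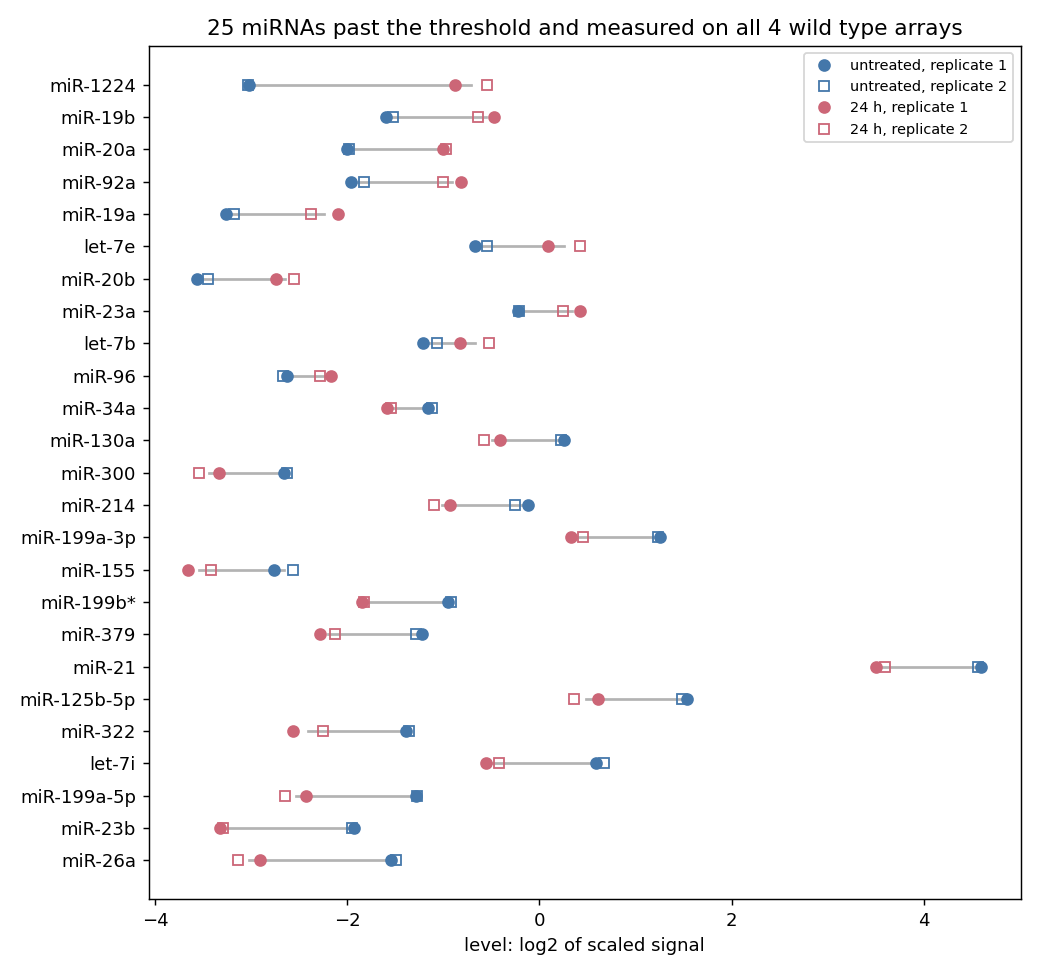
Level of each of the 25 measured miRNAs past the threshold on the 2 untreated (blue) and 2 tunicamycin 24 h (red) arrays of wild type cells, as log2 of the scaled signal, with a grey line between the group means. The treated points lie to the right of the untreated ones for 10 miRNAs, from miR-1224 to miR-96, and to the left for 15; with spike-in scaling the 10 lie to the left as well.

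The largest measured rise was that of miR-1224, which lies within the annotated span of the gene Vwa5b2 and belongs to the miRNAs made from short introns. Its level was -3.02 and -3.04 on the untreated arrays and -0.87 and -0.55 at 24 h. Both treated arrays stood far above both untreated ones, a change of 2.32 ± 0.26 or 5.00-fold (limma, adjusted p = 0.000601). Before scaling, its signal was 66.7 and 73.1 untreated and 314 and 174 treated; the first labelling spike-in was brighter on both treated arrays as well, and with spike-in scaling the change of miR-1224 was -0.05. The 7 tested miRNAs of a list of G and C rich array entries to which miR-1224 belongs had a median change of 0.41, and no other member passed. The median G and C content was 43.2% over the 10 risen, 40.9% over the 13 fallen with a sequence and 42.9% over the 35 that did not pass. That of miR-1224 itself was 66.7%, the highest among these. Whether base composition plays a part was not tested.

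The miR-17 cluster, which runs from miR-17 to miR-92a on chromosome 14, and its paralogs, known for promoting proliferation and survival and for being driven by Myc, were the family with the most rises. Of 9 tested members 5 rose (55.6%, beside 7.43% of all 175) and none fell, with a median change of 0.86 beside -0.21 over all 175. On the spike-in scaling these 5 changes lay between -1.39 and -1.28, where the median of the 66 measured miRNAs was -2.29. Apart from the floor, that scaling moves all changes by the same amount. miR-19b was at -1.60 and -1.52 untreated and -0.47 and -0.64 at 24 h. This separation amounted to 1.01 ± 0.18 (limma, adjusted p = 0.00357). miR-20a, a miR-17 family member that represses cell cycle inhibitors, was at -2.01 and -1.98 untreated and -1.01 and -0.98 at 24 h, a change of 1.00 ± 0.21 (limma, adjusted p = 0.00726). For both, the treated arrays were higher than the untreated ones with no overlap.

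The remaining risen members belong to the same seeds or to miR-92a. miR-19a went from -3.26 and -3.19 to -2.10 and -2.38, a change of 0.98 ± 0.22. miR-92a, encoded at the 3′ end of the cluster, went from -1.97 and -1.82 to -0.82 and -1.0, a change of 0.99 ± 0.25. miR-20b, encoded in the paralogous cluster on chromosome X, went from -3.56 and -3.46 to -2.74 and -2.56, a change of 0.86 ± 0.11. miR-19b and miR-92a have another locus there with the same mature sequence, so the array cannot assign their rises to either cluster. miR-19a, miR-92a and miR-20b all passed (limma, adjusted p = 0.00899, 0.016 and 0.000861), and their groups did not overlap. Without 24 h replicate 1, 3 of the 5 passed, and without 24 h replicate 2, 4 did; miR-92a did not pass without any 1 of the 4 arrays, nor miR-19a without untreated or 24 h replicate 1.

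miRNAs of the third cluster, miR-106b-25, hosted in an intron of the replication gene Mcm7 on chromosome 5, did not pass. miR-106b, which shares its seed with miR-20a, was at -3.46 and -3.47 untreated and -3.36 and -3.55 at 24 h, so that its groups overlapped. Its change was 0.01 ± 0.26. miR-25 changed by 0.03 ± 0.17, and miR-93 by -0.53 ± 0.31. miR-18a, from the miR-17 cluster itself, changed by 0.53 ± 0.34 and did not pass either.

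**Figure D2:**
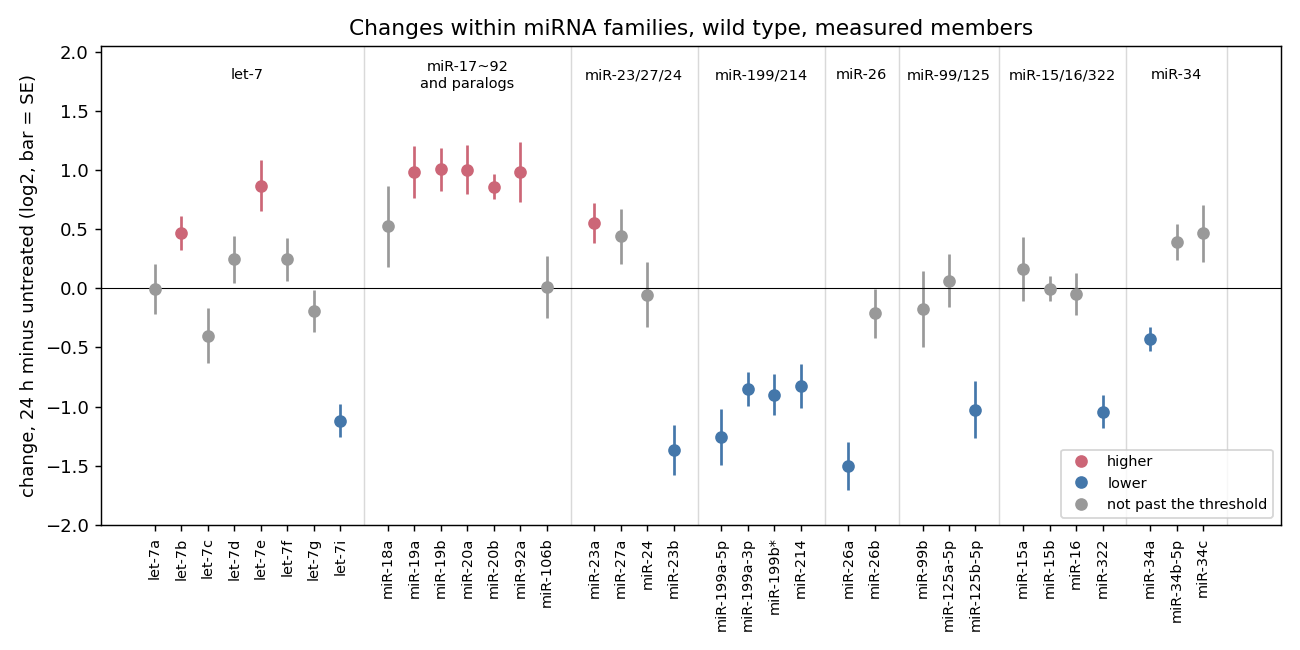
Change from untreated to 24 h (log2, bars are SE, n = 2 arrays per group) of the measured members of 8 miRNA families in wild type cells, with red for higher, blue for lower and grey for not past the threshold. In the let-7 family and the miR-23/27/24 group risen and fallen members stand side by side, while the 4 miR-199 and miR-214 members all lie below 0; with spike-in scaling the red points lie below 0 too.

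The let-7 family, which represses Ras, Myc and Lin28 and accompanies differentiation, did not move as one. Of its 9 tested members (miR-98 included) 2 rose (22.2%, beside 7.43% of all 175), 1 fell (11.1%, beside 33.7%) and 6 did not pass. Among the 40 seeds of the matched miRNAs, it alone held both a rise and a fall past the threshold; miR-23b, the fallen partner of miR-23a described below, had no matched sequence and was not among them. let-7e was at -0.67 and -0.55 untreated and 0.09 and 0.42 at 24 h, a change of 0.87 ± 0.22 (limma, adjusted p = 0.0141). let-7i was at 0.59 and 0.67 untreated and -0.56 and -0.42 at 24 h, a change of -1.12 ± 0.14 (limma, adjusted p = 0.000849). Thus one member was higher and the other lower on both treated arrays, with no overlap.

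let-7b rose less, from -1.21 and -1.07 to -0.83 and -0.53, a change of 0.46 ± 0.14 (limma, adjusted p = 0.0365). let-7a, whose level was -0.12 and -0.07 untreated and -0.19 and -0.01 at 24 h, changed by -0.01 ± 0.21. let-7c, let-7d, let-7f and let-7g changed by -0.40, 0.25, 0.25 and -0.19 and did not pass. The rises of let-7e and let-7b did not pass without 24 h replicate 2, at 0.70 (limma, adjusted p = 0.091) and 0.31 (limma, adjusted p = 0.22), nor without either untreated array. How far the probes of such similar sequences share signal was not tested.

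Genomic neighbours did not always move together either. let-7e, miR-99b and miR-125a lie within 1 gene span, Spaca6 on chromosome 17. let-7e rose, whereas miR-99b changed by -0.17 ± 0.32 and miR-125a by 0.06 ± 0.22. let-7b and 1 of the 2 loci of let-7c lie side by side on chromosome 15, within the span of the noncoding gene Lncppara.

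The miR-23/27/24 miRNAs come from a cluster on chromosome 8 (miR-23a, miR-27a and miR-24) and from another on chromosome 13, within the span of Aopep (miR-27b and miR-24 again). miR-23a was at -0.23 and -0.21 untreated and 0.43 and 0.24 at 24 h, a change of 0.55 ± 0.17 (limma, adjusted p = 0.0324). miR-23b, its family partner, was at -1.93 and -1.95 untreated and -3.33 and -3.30 at 24 h, a change of -1.37 ± 0.21 (limma, adjusted p = 0.00193). The pair therefore moved in opposite directions on every treated array, although the rise of miR-23a did not pass when any of the 6 wild type arrays was left out, 12 h included (between 0.46 and 0.64; limma, adjusted p between 0.051 and 0.148). miR-27a changed by 0.44 ± 0.23, miR-27b by -0.49 ± 0.18 and miR-24, which both clusters encode, by -0.05 ± 0.27; none of the 3 passed.

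Setting relatives against each other on the same array takes out the scaling factor of that array as long as no probe lies at the floor. The pairs were chosen after their values were seen, so the shifts are a description without a test. The log2 difference of miR-23a minus miR-23b was 1.71 and 1.74 on the untreated arrays and 3.75 and 3.54 at 24 h, a shift of 1.92. For let-7e minus let-7i it was -1.26 and -1.22 untreated and 0.65 and 0.84 at 24 h, a shift of 1.99. For miR-26b minus miR-26a it was -1.47 and -1.53 untreated and -0.35 and -0.06 at 24 h, a shift of 1.29. A probe of miR-23b and a probe of miR-26a were below background on 24 h replicate 2, so the sizes of their shifts rest in part on such signals. With spike-in scaling, under which the floor moves too, the 3 shifts were 1.26, 1.99 and 1.26, and with the floor at 4 times they were 1.25, 1.99 and 1.06. In each of these pairs both treated arrays stood apart from both untreated ones by far more than replicates differed.

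Smaller shifts in the same sense were seen for miR-125a minus miR-125b (1.09), miR-15b minus miR-322 (1.04), miR-20a minus miR-106b (0.99), miR-27a minus miR-27b (0.93, with a miR-27b probe at the floor on an array) and let-7b minus let-7c (0.86). In the family of miR-29, which represses collagens, miR-29b minus miR-29a shifted by 0.14. Without background correction by the scanner software, that is with normexp and quantile normalization, the first 3 pairs shifted by 1.05, 1.62 and 0.75.

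**Figure D3:**
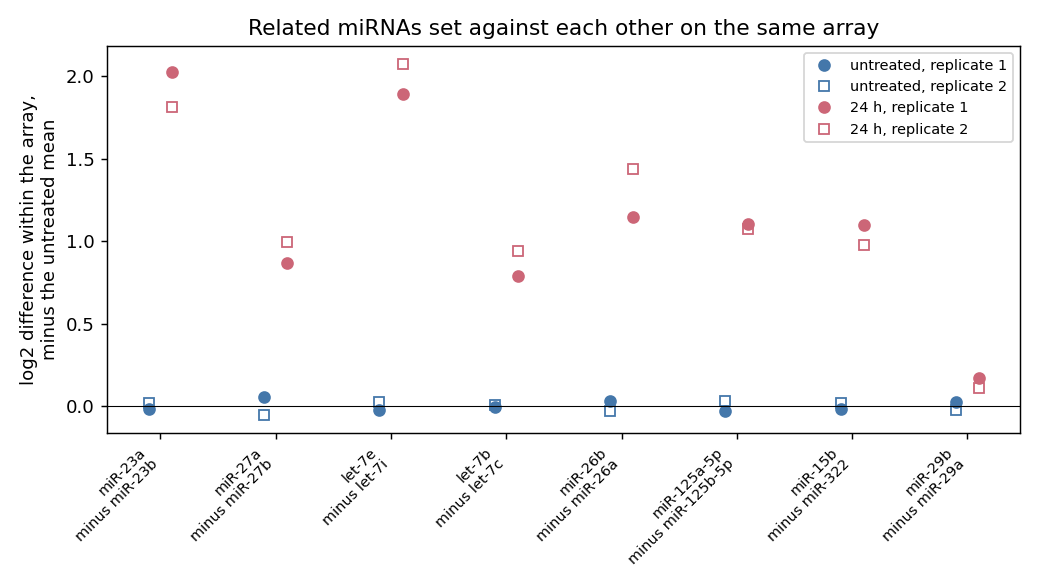
Log2 difference between 2 related miRNAs on the same array, minus its mean over the untreated arrays, for 8 pairs on the untreated (blue) and 24 h (red) arrays of wild type cells. The untreated replicates lie near 0 in every pair, the treated ones near 2 for miR-23a minus miR-23b and let-7e minus let-7i, and the pair miR-29b minus miR-29a shifted by 0.14.

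miR-26a, which represses Ezh2 and is abundant in differentiated cells, had the largest measured fall on this scaling. It was at -1.55 and -1.50 untreated and -2.91 and -3.14 at 24 h, a change of -1.50 ± 0.20, or 2.83-fold lower (limma, adjusted p = 0.00124). A probe of miR-26a was below background on 24 h replicate 2, so this size rests in part on such a signal. Its size and rank depended on the processing: with summed signals per miRNA the change of miR-26a was -0.26 (limma, adjusted p = 0.91), in the deposited table -0.49 (limma, adjusted p = 0.84) and with normexp -0.89 (limma, adjusted p = 0.15), where that of miR-23b was -1.80, -2.03 and -0.72. miR-26b, encoded at another locus, was at -3.02 and -3.02 untreated and -3.26 and -3.20 at 24 h, a change of -0.21 ± 0.21 that did not pass.

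All 4 tested miRNAs of the miR-199 and miR-214 group fell, beside 22.7% of the measured and 33.7% of all tested miRNAs, with a median change of -0.88; miR-214 and 1 of the 2 miR-199a loci lie within the noncoding gene Dnm3os on chromosome 1, and the group is known from mesenchyme and fibrosis. miR-199a-5p was at -1.29 and -1.28 untreated and -2.43 and -2.65 at 24 h, a change of -1.26 ± 0.23 (limma, adjusted p = 0.00426). miR-199a-3p, named for the other arm, was at 1.25 and 1.23 untreated and 0.33 and 0.46 at 24 h, a change of -0.85 ± 0.14 (limma, adjusted p = 0.00284). Both were lower on both treated arrays. Each of these mature sequences lies at both miR-199a loci, so the array cannot assign the falls to a single precursor. miR-199b*, the array's name for the 5′ arm of miR-199b, went from -0.95 and -0.92 to -1.85 and -1.82, a change of -0.90 ± 0.17. miR-214 went from -0.12 and -0.26 to -0.94 and -1.10, a change of -0.83 ± 0.19 (limma, adjusted p = 0.00949). Without 24 h replicate 2, 3 of the 4 passed.

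Other miRNAs characteristic of fibroblasts fell as well. miR-21, an abundant miRNA linked to fibrosis and survival, was at 4.60 and 4.56 untreated and 3.51 and 3.60 at 24 h. This fall of 1.02 on the log2 scale (SE 0.18; limma, adjusted p = 0.00357) left the groups far apart, but after quantile normalization the change was -0.17 (limma, adjusted p = 0.34). miR-125b, of the lin-4 family, went from 1.54 and 1.49 to 0.61 and 0.36, a change of -1.03 ± 0.24 (limma, adjusted p = 0.0118), whereas miR-125a with the same seed changed by 0.06. Over the list of fibroblast and mesenchymal miRNAs 11 of 18 tested were lower (61.1%, beside 33.7% of all 175) and none higher, with a median of -0.79. The 11 include the 4 of the miR-199 and miR-214 group given above, and 6 were measured on all 4 arrays. Members dim after treatment could enter the test through the untreated arrays alone. This favours falls, and the share was not tested against it. Of the 11, 9 were above background on 24 h replicate 1 and 6 on 24 h replicate 2, and 9 were lower without replicate 2. Of the whole list, 18 members were above background on each untreated array, 16 on 24 h replicate 1 and 11 on 24 h replicate 2. Members that did not pass include miR-22 (-0.29), miR-29a (-0.09), miR-29b (0.05) and miR-31 (0.09).

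miR-322, which shares the seed of miR-15 and miR-16 and is encoded on chromosome X, went from -1.39 and -1.36 to -2.57 and -2.26. It fell by 1.04 on the log2 scale (SE 0.14; limma, adjusted p = 0.00103), while miR-15a, miR-15b and miR-16 changed by 0.16, -0.004 and -0.05 and did not pass. miR-155, a miRNA of activated immune cells, went from -2.76 and -2.57 to -3.66 and -3.43, a change of -0.88 ± 0.15 (limma, adjusted p = 0.00303). miR-130a, from a family with an AGUGCAA seed, went from 0.26 and 0.23 to -0.41 and -0.58, a change of -0.74 ± 0.19 (limma, adjusted p = 0.0176).

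Of the miRNAs whose precursors IRE1 has been reported to cleave, 3 were tested, and on this scaling they did not share a direction. miR-125b fell, as given above. miR-34a, a p53 target, went from -1.16 and -1.12 to -1.59 and -1.55, a change of -0.43 ± 0.10 (limma, adjusted p = 0.0131). miR-96, of the miR-183 cluster on chromosome 6, went from -2.63 and -2.67 to -2.18 and -2.29, a change of 0.41 ± 0.10 (limma, adjusted p = 0.0104). The change of miR-96 was 0.07 with summed signals, -0.17 in the deposited table and -1.96 with spike-in scaling, where all 3 fell. Its cluster neighbour miR-183 changed by 0.37 ± 0.14 on the main scaling and did not pass. Among all 17 tested miRNAs of a list reported in the unfolded protein response, 3 were higher (miR-23a, miR-96 and miR-689) and 6 lower (miR-34a, miR-125b, miR-199a-5p, miR-199a-3p, miR-214 and miR-222), with a median of -0.30. The share lower, 35.3%, was near the 33.7% over all 175, and 17.6% were higher beside 7.43%. Without 24 h replicate 1 the counts were 1 and 5, and without 24 h replicate 2 they were 2 and 3. The 6 tested miR-30 and the 3 tested miR-29 family members gave no call in either direction.

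The other 44 of the 59 lower miRNAs were not measured on all 4 arrays. For 31 of the 44 even the brightest probe had an untreated mean below the lowest signal that counted as above background on 24 h replicate 2, and for 13 it lay above that limit. Of all 59, 43 were above background on 24 h replicate 1 and 18 on 24 h replicate 2, and 34 had a probe at the floor on an array. Replicates that both sit at the floor are equal by construction, which makes the standard errors of such miRNAs small. Dim miRNAs could also enter the test through the untreated arrays alone, which favours falls among them.

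The imprinted Dlk1-Dio3 cluster on chromosome 12, expressed from the maternal chromosome in embryonic and mesenchymal cells, made up 28 of the 59. Of its 33 tested miRNAs 28 were lower (84.8%, beside 33.7% of all 175) and none higher, with a median of -0.70 beside -0.21 over all 175. A probe was tested if above background on both arrays of any 1 group, so members dim after treatment could enter through untreated cells alone. This favours falls, and the share of 84.8% was not tested against it. Only 3 of the 33 were measured on all 4 arrays, and 2 of those passed. miR-379 went from -1.23 and -1.29 to -2.28 and -2.13, a change of -0.95 ± 0.25 (limma, adjusted p = 0.018). miR-300 went from -2.66 and -2.63 to -3.33 and -3.55, a change of -0.80 ± 0.11 (limma, adjusted p = 0.00144). miR-299* changed by -0.53 ± 0.31 and did not pass. Of the 28 lower miRNAs, 19 were above background on 24 h replicate 1 and 3 on 24 h replicate 2; without replicate 2, 23 of the 33 were lower.

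For miRNAs above background on no array of a group, the size of the change is only a bound: the brighter group's mean against the dim group's mean of, on each array, the higher of its lowest signal above background and the miRNA's own. miR-689, an array entry that the lists place among pieces of abundant RNAs, was at the floor on both untreated arrays and at -2.80 and -2.74 at 24 h. On this scaling and its 1 used probe it was at least 4.76-fold higher (limma, adjusted p = 4.22e-05). That bound did not hold under other processing. Its change was 0.42 with summed signals (limma, adjusted p = 0.88) and 0.18 in the deposited table (limma, adjusted p = 0.89). It was 0.73 with normexp (limma, adjusted p = 0.15) and -0.13 with spike-in scaling. miR-210, the miRNA most closely tied to hypoxia, was at -3.86 and -3.83 untreated and at the floor at 24 h. It was lower by at least 1.07-fold (limma, adjusted p = 1.33e-05), a weak bound because of the high limit of 24 h replicate 2. miR-99a, at -3.39 and -3.28 untreated and at the floor at 24 h, had a bound of at least 1.52-fold lower (adjusted p = 4.22e-05 in limma), and miR-154* at least 1.02-fold lower. For these 3 falls the untreated mean lay below the limit of 24 h replicate 2, so the bound is not strict. No fold is given for miR-409-3p and miR-376a*, whose bound was under 1.

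At 12 h, compared with the same untreated arrays, 78 of the 175 miRNAs passed (44.6%). Of the 25 measured calls at 24 h, 24 had the same sign at 12 h and 21 also passed there. Sharing the untreated arrays ties these values together. The 12 h and 24 h replicates also shared scanning runs, and their deviations correlated at 0.89. miR-26a changed by -1.44 at 12 h and -1.50 at 24 h, let-7i by -1.34 and -1.12, and miR-19b by 0.92 and 1.01. miR-96 was the exception in sign, with -0.01 at 12 h and 0.41 at 24 h. Set directly against each other, the 24 h and 12 h arrays gave 2 miRNAs past the threshold (1.14%), neither among the 25. miR-148a was at -4.81 and -4.74 at 12 h and -4.01 and -3.95 at 24 h, 0.80 ± 0.12 higher at 24 h (limma, adjusted p = 0.0191) and below its untreated -3.24 and -3.08 at both times. It was above background on 1 of the 2 arrays at each of the treated times, so this size rests in part on signals not above background. miR-689 was at -3.97 and -4.05 at 12 h and 1.25 ± 0.15 higher at 24 h (limma, adjusted p = 0.0106); its only probe was above background on 1 of the 2 arrays at 12 h.

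In fibroblasts deficient in ATF6a, set against their own untreated arrays, 18 of the 175 miRNAs passed at 24 h (10.3%). All 25 measured calls of the wild type had the same sign there, and 8 passed. For miR-23a and miR-96 that sign rested on changes of 0.006 and 0.07. Here too the untreated arrays were on slide 1 and the 24 h arrays on slide 2. Slide and treatment therefore cannot be told apart by the shared signs. At 24 h the replicates of both genotypes also shared scanning runs, and their deviations correlated at 0.94. miR-199a-5p changed by -1.39 in the deficient cells and -1.26 in the wild type, miR-322 by -0.91 and -1.04, and miR-214 by -1.41 and -0.83. miR-19b changed by 0.54 against 1.01 and miR-21 by -0.55 against -1.02, neither past the threshold in the deficient cells. The test of the difference between the responses passed for 23 of the 175 miRNAs (13.1%), 3 of them among the 25.

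Those 3 were miR-1224, miR-20b and miR-23b. miR-1224 rose further in the deficient cells, from -3.41 and -3.08 to 0.92 and 0.74, so that its response was larger by 1.75 ± 0.36 (limma, adjusted p = 0.0214). miR-23b changed by -0.20 in the deficient cells against -1.37 in the wild type, a difference of 1.17 ± 0.30 (limma, adjusted p = 0.045). miR-20b changed by 0.27 against 0.86, a difference of -0.59 ± 0.15 (limma, adjusted p = 0.045) that did not pass with the replicate number as a block (limma, adjusted p = 0.077). The shift of miR-23a against miR-23b on the same array was 0.21 in the deficient cells and 1.92 in the wild type. Under a percentile over all probes none of the 175 differences passed, and 2 had an unadjusted p under 0.05.

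**Figure D4:**
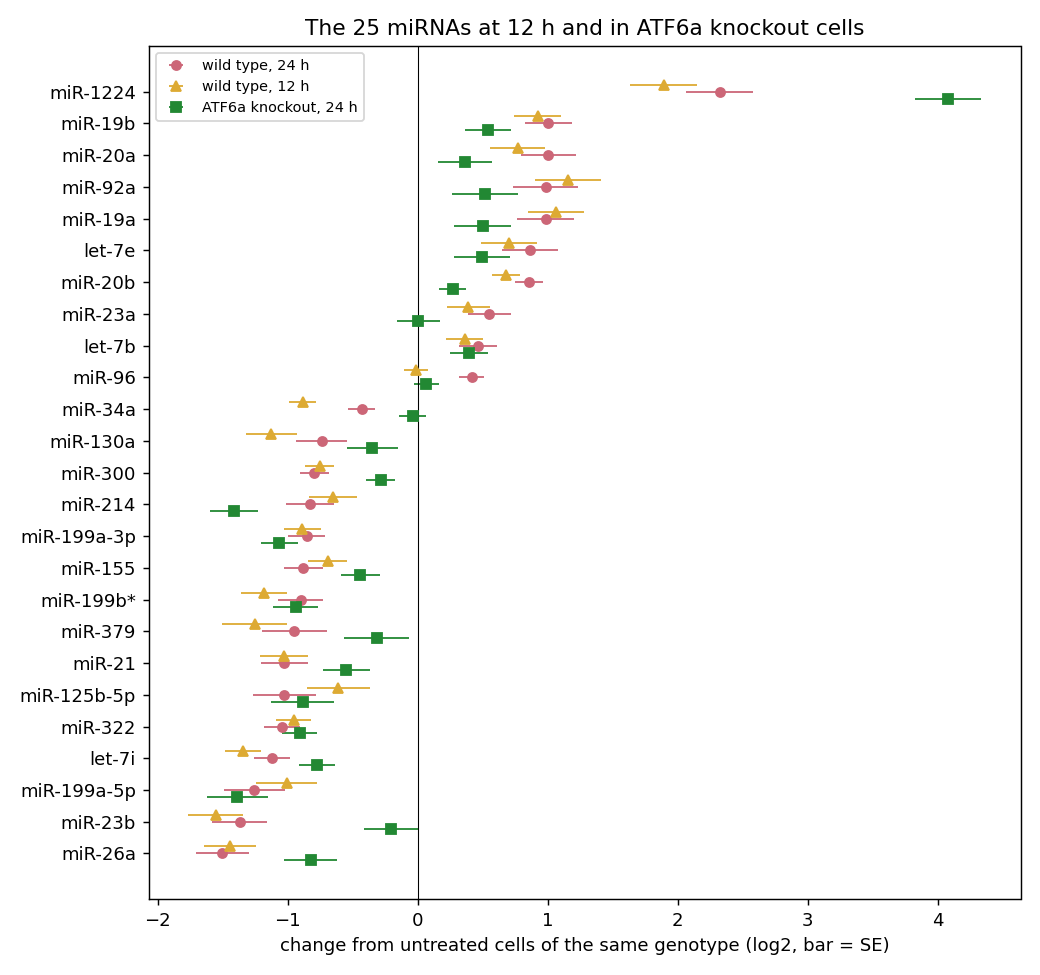
Change from untreated cells of the same genotype (log2, bars are SE, n = 2 arrays per group) of the 25 measured miRNAs in wild type cells at 24 h (circles) and 12 h (triangles) and in ATF6a knockout cells at 24 h (squares). The wild type times share their untreated arrays; miR-1224 lies at 2.32 in the wild type and 4.08 in the knockout, and miR-23b at -1.37 and -0.20.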

How the data were processed

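The deposited spot intensity values are linear, background-subtracted and not scaled between arrays, as the headers of the deposited files show; the submitters' processing notes name Agilent Feature Extraction 10.7.1.1. Log2 values in the deposited series table equal log2 of the scanner's summed signal per miRNA (2034 of 2034 within 1e-05; column medians 5.70 to 8.23).

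Control and outlier spots were dropped and the rest averaged per probe. Arrays were divided by the 75th percentile over 87 probes above background on all 12 arrays, a floor of 0.0309 was set and log2 taken. Probes above background on both arrays of any group were kept and averaged per miRNA. limma 3.58.1 (R 4.3.3) was fitted to all 6 groups, with 6 residual and 1.16 prior degrees of freedom; the number of arrays limits its precision. It was tested on simulated data.

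Members, lists and tests were chosen with earlier results of these data known, and the measured miRNAs were defined after seeing the data. Named miRNAs are those past the threshold with groups that did not overlap: up to 12 measured rises and falls by size, 6 more per direction by p, and tested list members. Current names were assigned by hand to match RefSeq.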

Additional observations from a re-analysis of the deposited data

Results flagged for a closer look

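The difference between the 24 h responses of ATF6a-deficient and wild type cells passed for 23 miRNAs (limma). Among those named, the response of the deficient cells minus that of the wild type was 1.75 for miR-1224, 1.17 for miR-23b and -0.59 for miR-20b. Each of these had at least 1 probe above background on every array of both genotypes. A probe of miR-23b and a probe of miR-20b were below background on wild type 24 h replicate 2. The sizes for these miRNAs rest in part on such signals. The other named miRNAs were above background on at most 1 of the 2 arrays of the wild type at 24 h. Their sizes rest in part on signals not above background as well. They were 1.43 for miR-148a, 1.65 for miR-99a, 0.81 for miR-409-3p, 0.80 for miR-154* and 0.73 for miR-210. For miR-376a* the difference was 0.68, for miR-152 0.63, for miR-196b -0.65 and for miR-149 -1.05. miR-196b was at the floor on all 4 untreated and 24 h arrays of the deficient cells. miR-376a* was at the floor on both untreated arrays of the deficient cells and at -4.96 and -5.02 at 24 h. In the wild type it was at -5.02 and -4.93 at 24 h, so its difference is set mainly by the floor and the untreated wild type level. miR-409-3p, miR-154* and miR-210 were at the floor on all 24 h arrays of both genotypes. Their differences are therefore those of the untreated levels, fixed by the floor, and do not measure a difference in response. The untreated levels of miR-210 were -3.86 and -3.83 in the wild type and -4.61 and -4.54 in the deficient cells. For miR-154* they were -3.90 and -3.92 against -4.75 and -4.67, and for miR-409-3p -4.09 and -4.10 against -4.93 and -4.89. Between 12 h and 24 h in the wild type, miR-148a differed by 0.80 and miR-689 by 1.25, each above background on 1 of the 2 arrays at 12 h.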

How the results depend on the processing

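The 72 calls between 24 h and untreated wild type cells became 0 with the percentile over all probes (11 at an unadjusted p under 0.05, limma), 11 with quantile normalization, 27 with the summed signal per miRNA, 0 with the deposited table (18 unadjusted), 2 with normexp (31 unadjusted), 27 with only miRNAs above background on all arrays compared, 35 with the floor at 4 times and 117 with spike-in scaling, all lower there. They stayed within 1.5 times with no filter on dim probes (49), the floor at 0.25 times (60), the brightest probe (66), only the arrays compared (91) and the run as a random block (73), and ranged from 53 to 87 with arrays left out. The cause was not tested. The median of the 66 measured miRNAs was 0.14 with the percentile over all probes, -0.20 with summed signals, -0.45 in the deposited table and -2.29 with spike-ins. Among the 25 measured calls, direction was kept in 24 with summed signals, 22 in the deposited table and 15 with spike-ins. It was kept in all 25 under every other setting run. Several of those cannot alter the difference of means: the blocks, only the arrays compared, only miRNAs above background, and leaving out 12 h or deficient arrays. The number past the threshold was 0 with the percentile over all probes, with quantile normalization and in the deposited table. That number was 1 with normexp, 4 with summed signals, 14 with no filter and 15 with spike-ins. The change moved by over 1.5 times in 2 of the 25 with the percentile over all probes, 1 with quantile normalization (miR-21), 10 with summed signals, 18 in the deposited table, 17 with normexp, 6 with the floor at 4 times, 1 with the brightest probe (miR-125b) and all 25 with spike-ins.

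The 2 calls between 24 h and 12 h became 0 with the percentile over all probes, quantile normalization, summed signals, the deposited table, normexp, no filter, only miRNAs above background, only the arrays compared and spike-ins, and 1 with the floor at 0.25 or 4 times; they ranged from 0, without replicate 2 of either wild type treated group, to 7, without either ATF6a-deficient 12 h array. The 23 differences between genotypes became 0 with the percentile over all probes (2 unadjusted), the deposited table (1 unadjusted), normexp (5 unadjusted), only miRNAs above background (7 unadjusted) and spike-ins (2 unadjusted), 1 with quantile normalization, 2 with summed signals, 15 with no filter, 3 and 13 with the floor at 0.25 and 4 times, and 42 with only the arrays compared; they ranged from 11, without deficient 24 h replicate 1, to 45, without either deficient 12 h array, and were 12 and 14 without untreated wild type replicate 1 and 2, 14 without wild type 24 h replicate 1, and 15 without replicate 2 of the deficient untreated or 24 h cells.

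With spike-in scaling the following changed sign: miR-1224 (-0.051), miR-19b (-1.37), miR-20a (-1.37), miR-92a (-1.39), miR-19a (-1.39), let-7e (-1.51), miR-20b (-1.28), miR-23a (-1.82), let-7b (-1.91), miR-96 (-1.96), miR-689 (-0.13), miR-196b (-1.02) and miR-149 (-0.31). In the deposited table this held for let-7b (-0.082), miR-96 (-0.17), miR-152 (1.43) and miR-300 (0.51), and with summed signals for miR-196b (-0.68), miR-149 (-2.21) and miR-300 (0.74). Spike-in scaling and the crossed block were added after seeing the data.

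With the replicate number as a block the counts were 73, 2 and 19, and the block changed no call of a named miRNA at 24 h against untreated or 12 h. Among the named genotype differences miR-20b and miR-149 no longer passed (adjusted p = 0.077 and 0.073, limma). Replicate deviations correlated at -0.45 between the untreated and 24 h groups, 0.89 between 12 h and 24 h and 0.94 between the genotypes at 24 h. On each slide the replicate number was also the scanning run. These values therefore cannot show whether the numbers pair untreated with treated arrays. With the pairing crossed there were 74 calls. Dim signals on 24 h replicate 2 limit which falls could be sized.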

Other observations

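miR-467f, miR-669f and miR-1187 differed between the treated replicates more than between the groups. miR-467f was at -3.38 and -4.00 untreated and at -4.06 and -1.24 at 24 h. miR-669f was at -3.30 and -3.70 untreated and at -3.27 and -1.62 at 24 h. miR-1187 was at -3.09 and -3.59 untreated and at -3.68 and -1.77 at 24 h. On 24 h replicate 2 each of these lay above its other 3 arrays, and none passed the threshold.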
